A study of Homo sapiens with 6 samples.

Results

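The genes described here are 33 genes of glycolysis and the pentose phosphate pathway: the carriers that bring glucose in and lactate out, the enzymes of each glycolytic step, the enzymes that set fructose 2,6-bisphosphate, and the branch that makes NADPH and ribose phosphate. They were taken by name from the 18806 gene symbols of the deposited table, and all 33 were found. HK3 lay under the filter of a mean of 1 TPM over all libraries, so 32 members were tested among 10911 genes. TPM is a relative level per transcript length, so a value is a gene's share of the poly(A) RNA of that library and not an amount per cell.

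The cells were Mono-mac-6, a human monocytic acute myeloid leukaemia line with the MLL-AF9 fusion gene, in medium that contained sodium pyruvate and insulin. Every group came from 1 Cas9 single clone, received a guide RNA by lentivirus, was selected with blasticidin at 10 µg/ml and hygromycin B at 200 µg/ml, and was collected 8 to 10 days after transduction. The control guide sgNS, and the guides sgMETTL1.3 and sgMETTL1.6 against METTL1, the catalytic subunit of a tRNA methyltransferase, had 2 libraries each, 6 in all. The names of the value columns include "EV", which is not explained in the labels. The labels do not say whether replicates were separate cultures, so each p-value rests on how far these libraries spread, and part of that spread may be technical.

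Glycolysis splits glucose into pyruvate in the cytosol, with a small yield of ATP, and lactate dehydrogenase and the monocarboxylate carriers turn surplus pyruvate into lactate and move it across the membrane. The pentose phosphate pathway leaves glycolysis at glucose 6-phosphate: its oxidative arm makes NADPH, and its non-oxidative arm links ribose phosphate to glycolytic sugars in both directions. Myeloid leukaemia cells are known for high glycolytic use of glucose, and several steps exist as isozymes from separate genes with different tissue patterns.

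As series-wide facts, the targeted gene's mRNA differed from the control in opposite directions under the guides, and the 3 groups did not overlap. METTL1 stood at 15.4 and 13.9 TPM in the control libraries, 18.3 and 16.6 TPM in those labelled sgMETTL1.3 and 11.2 and 11.7 TPM with the sgMETTL1.6 label. Over both guides, a mean of opposite signs, it did not pass (log2 change -0.05, limma adjusted p = 0.53). By guide, the METTL1 change was 0.24 for sgMETTL1.3 (limma adjusted p = 0.0111) and -0.33 for sgMETTL1.6 (limma adjusted p = 0.00167). A gene-level mRNA value is no test of protein loss, and every direction below is that of libraries as labelled, a guide's name standing for the libraries that carry its label. The 10 myeloid markers, led by LYZ, summed to 11620 to 12187 TPM in the control libraries, 11464 to 11542 TPM for sgMETTL1.3 and 9887 to 10274 TPM for sgMETTL1.6, although CD14 and CSF1R stayed under 1 TPM in every library. LYZ made up most of that sum, and other markers moved more: for sgMETTL1.3 and sgMETTL1.6 the change in mean TPM was -50.1% and -38.2% for ITGAM, -44% and -47.9% for FCGR1A, -35.7% and -24.8% for PTPRC, -33.6% and -22.2% for MPO, -17.9% and -27.5% for CD68, and 24.6% and 6.4% for SPI1, while CD33 changed by -0.5% and 1.2%. All 4 T cell markers were at 0, the B cell, megakaryocyte, epithelial and fibroblast lists each summed to at most 1.71 TPM, and the erythroid list to at most 8.23 TPM. The endothelial list, almost all of it PECAM1, which myeloid cells also express, summed to 68.6 to 73.8 TPM in the control and sgMETTL1.6 libraries and 98.6 to 100.06 TPM for sgMETTL1.3. The part of these markers in the results was not tested. Depth is unknown because TPM keeps none. Replicates differed by a median of 2.42% to 3.15% over 1742 genes of at least 100 TPM.

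Of the 32 tested members, 16 rose and 8 fell over both guides against sgNS in limma at an adjusted p under 0.05, and 8 did not pass. Across all tested genes 59.4% passed, 32.6% higher and 26.8% lower, against 75% of the members, 50% higher and 25% lower. The members' median log2 change was 0.07, beside 0.02 over all tested genes. All 4 guide libraries lay above both controls in 13 tested members and below both in 7, and did so in 32.9% and 27.3% of all tested genes. The count of falls was 5 without either sgNS replicate, while the rises stayed within 1.5 times. Only SLC2A3 and ALDOC moved by at least 0.5 on the log2(TPM + 1) scale, and the other 22 calls were smaller. These are bulk libraries, in which fewer cells of a type and less RNA per cell cannot be told apart.

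**Figure D1:**
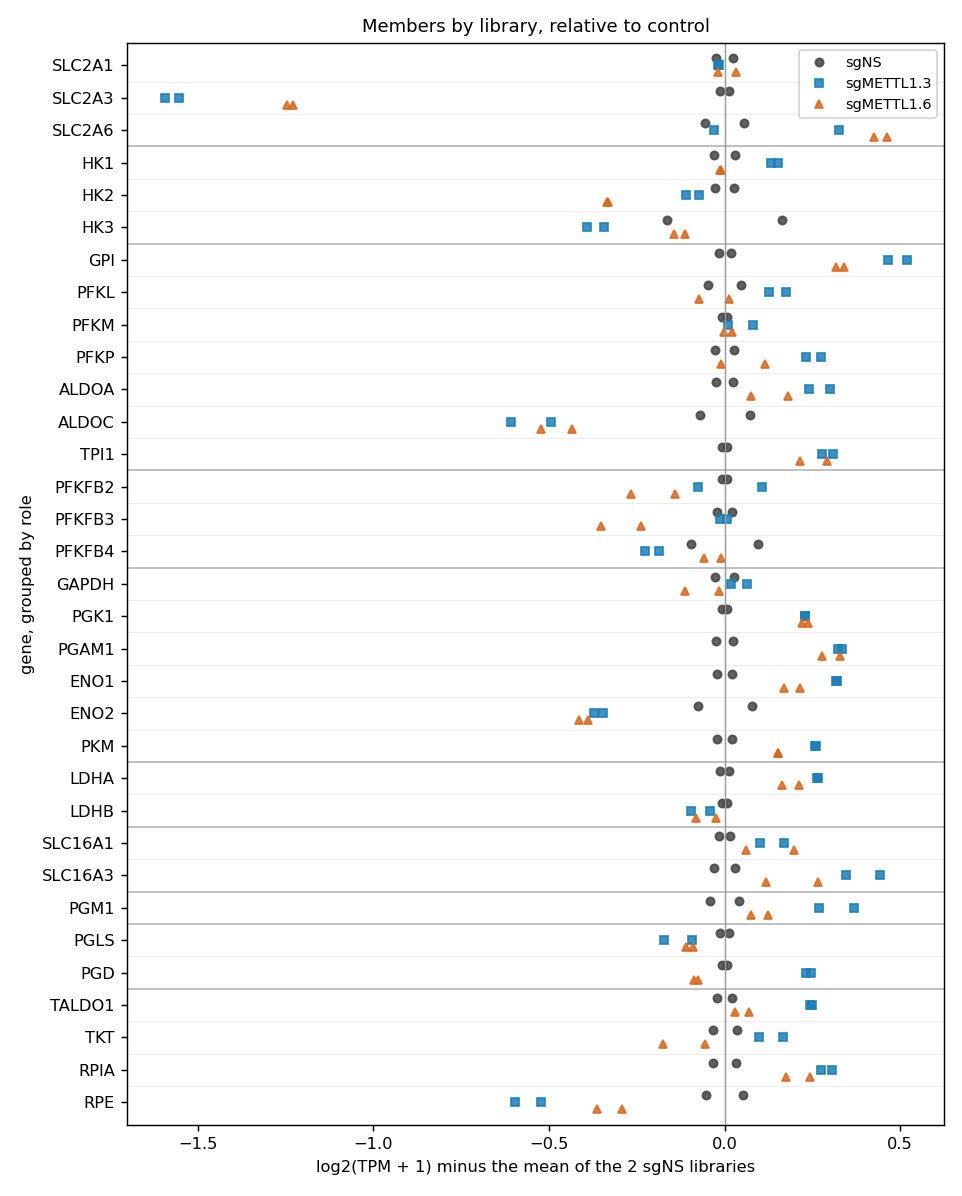
Level of each member (vertical, grouped by role) in each library as log2(TPM + 1) minus the control mean (horizontal), with 1 point per library coloured by guide. SLC2A3 sits furthest below the control, with ALDOC and RPE next, GPI sits above it by 0.41 on average, and PGK1, PGAM1, ENO1 and PKM lie a little above it under both guides.

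In the control libraries the pathway's levels spanned a wide range per transcript length. GAPDH was the most abundant member at 3554 ± 90.7 TPM (SD, n = 2), ahead of ENO1 at 1823 ± 37.1, LDHB at 1691 ± 9.94 and PKM at 1275 ± 27.2 TPM. These were the 4 members above 1000 TPM, 15 members were above 100 TPM, and 5 were under 10 TPM. Together the 33 genes held 1.38% and 1.41% of the control TPM, 1.56% and 1.58% in the libraries labelled sgMETTL1.3, and 1.45% and 1.49% in those labelled sgMETTL1.6. The guide libraries were all above the controls in this sum, and no test of the sum was made.

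Promoter stretches of some members are shown next, to set their sequence beside their direction, and all of those shown hold the letters marked in capitals. Members without these letters in the 250 bases before the start site, such as PGAM1, which rose, and RPE, which fell, are not shown. Of the 33 members, 30 matched the RefSeq promoter table (GRCh38.p14), and SLC2A3, PFKFB2 and SLC16A1 did not. Sequences run 5′ to 3′ on the gene's strand, and capitals mark the hypoxia response core, ACGTG or GCGTG, read on either strand, so that CACGT is its reverse complement. Where the core is part of the E-box CACGTG, all of that motif is in capitals, and both motifs then share letters. PGK1 (chrX:78103998-78104173, plus strand) and LDHA (chr11:18394313-18394387, plus strand) rose under both guides. PGD (chr1:10398814-10399043, plus strand), the second NADPH-making dehydrogenase of the oxidative arm, rose only in the libraries labelled sgMETTL1.3, a difference tested below. The PGK1 and PGD stretches lie inside the GENCODE 29 spans of their genes and outside annotated exons, and the LDHA stretch ends at the base before the annotated gene.
PGK1: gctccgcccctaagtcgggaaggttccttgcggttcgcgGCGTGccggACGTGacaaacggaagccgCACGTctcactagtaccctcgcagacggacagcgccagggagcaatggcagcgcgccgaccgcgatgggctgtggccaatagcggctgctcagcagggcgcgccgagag
LDHA: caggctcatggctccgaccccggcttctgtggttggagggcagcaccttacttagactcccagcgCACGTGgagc
PGD: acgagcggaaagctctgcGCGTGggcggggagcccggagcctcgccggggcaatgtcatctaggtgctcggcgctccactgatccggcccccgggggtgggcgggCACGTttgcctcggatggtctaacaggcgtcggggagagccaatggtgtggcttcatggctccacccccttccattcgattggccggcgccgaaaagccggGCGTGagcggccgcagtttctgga

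Shorter windows of 30 bases are given for GPI (chr19:34364818-34364847, plus strand), which rose, and for ALDOC (chr17:28577116-28577145, minus strand), ENO2 (chr12:6914449-6914478, plus strand) and HK2 (chr2:74834061-74834090, plus strand), which fell. These windows lie before the RefSeq start sites, but inside the GENCODE 29 spans of their genes and within annotated exons. Each window was chosen because it holds the marked letters, so these sequences do not show how often members of either direction hold them. The counts over all members with a promoter are given below.
GPI: acactgcctgtaACGTGgaaggtgttcgat
ALDOC: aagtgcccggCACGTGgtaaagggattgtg
ENO2: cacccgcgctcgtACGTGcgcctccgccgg
HK2: gcagccaatggGCGTGcgCACGTcactgat

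In the 250 bases before the start site, ACGTG or GCGTG was found on either strand in 15 of 30 members (50%), in 58.7% of 8564 promoters of tested genes and in 43.1% of all 27305 promoters. The members that rose held it in 8 of 15 promoters, those that fell in 4 of 7, and those that did not pass in 3 of 7. The E-box CACGTG stood in 3 of 30 (LDHA, GAPDH and ALDOC; 10.0%), beside 9.4% of tested-gene and 6.5% of all promoters. The ATF4 and CEBP composite letters TGATGNAA stood in 1 of 30 (HK1; 3.3%), beside 1.3% and 3.2%. The antioxidant response letters TGACNNNGC stood in 6 of 30 (20.0%), beside 12.3% and 11.0%. These are matches of letters in 1 window, and say nothing about the binding of a factor.

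Among the glucose transporters, SLC2A3 showed the deepest fall of all members and SLC2A1 no change past the test. SLC2A3, the high-affinity glucose transporter GLUT3 of neurons and leukocytes (chromosome 12, 7919230 to 7936275, minus strand), stood at 17.3 and 17.6 TPM in the control libraries, 5.30 and 5.12 TPM in those labelled sgMETTL1.3, and 6.89 and 6.79 TPM in those labelled sgMETTL1.6. All 4 guide libraries lay far below both controls, and those labelled sgMETTL1.3 lay below those labelled sgMETTL1.6. SLC2A3 fell by 1.41 ± 0.058 (SE) over both guides on the log2(TPM + 1) scale (limma adjusted p = 4.32e-10). Its mean TPM fell by 70.2% in the libraries labelled sgMETTL1.3 and changed by -60.9% in those labelled sgMETTL1.6. SLC2A14, a near-identical neighbour of SLC2A3, was at 0.60 to 0.85 TPM, and RSEM shares reads between such copies by a model, so the split between these genes is uncertain.

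SLC2A1, the widely expressed transporter GLUT1, had 31.7 and 32.8 TPM in the control libraries, 31.9 and 31.8 TPM in those labelled sgMETTL1.3, and 31.8 and 33.0 TPM in the sgMETTL1.6 libraries. The groups overlapped, and the log2 change was -0.01 (limma adjusted p = 0.922). SLC2A6, a transporter of lysosomal membranes in myeloid cells, was low: 1.38 and 1.57 TPM in the control libraries, 1.42 and 2.10 TPM in those labelled sgMETTL1.3, and 2.32 and 2.41 TPM in those labelled sgMETTL1.6. Here the libraries labelled sgMETTL1.3 overlapped the controls and those labelled sgMETTL1.6 did not. SLC2A6 rose by 0.30 ± 0.11 over both guides (limma adjusted p = 0.0314), a call lost without either sgNS replicate (0.198 and 0.0633), without sgMETTL1.3 replicate 2 (0.103) and with no filter (0.0852). The share of SLC2A3 in the TPM of these 3 transporters was 34.1% ± 0.34 (SD, n = 2) in the control, 13.4% in the libraries labelled sgMETTL1.3 and 16.4% in those labelled sgMETTL1.6.

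**Figure D2:**
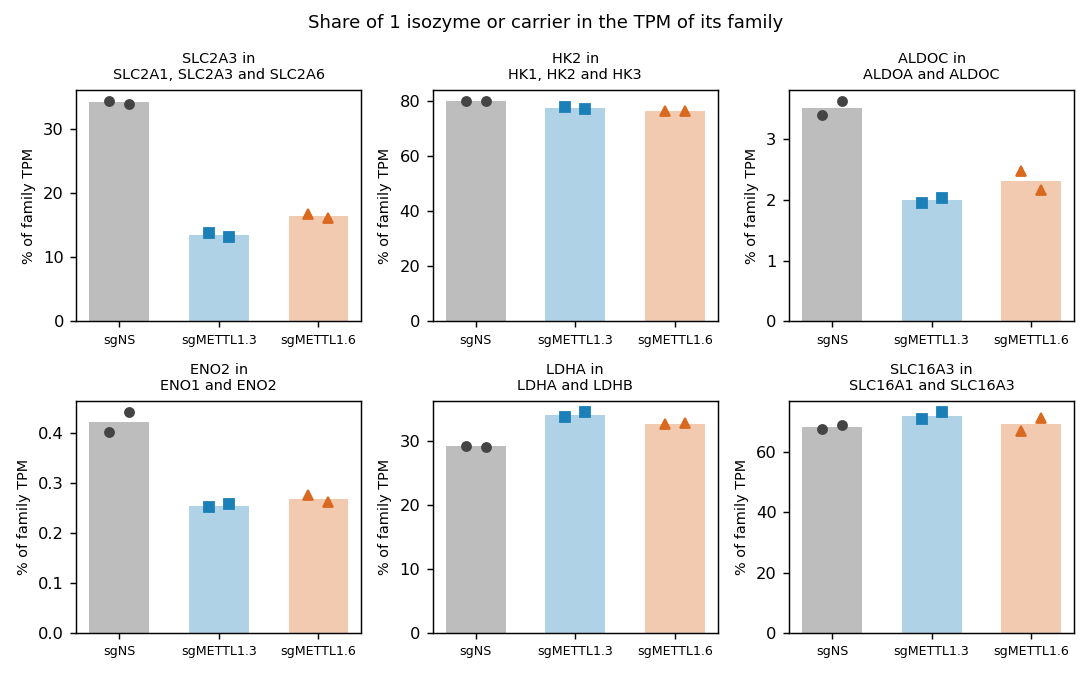
Share of 1 isozyme in the summed TPM of its family, in percent, with 1 point per library and bars for the mean of each group. The mean share of SLC2A3 among glucose transporters was 34.1% in the control and 13.4% and 16.4% in the guide libraries, that of ALDOC among aldolases 3.52%, 1.99% and 2.32%, and that of LDHA in lactate dehydrogenase 29.2%, 34.1% and 32.7%.

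Hexokinases trap glucose as glucose 6-phosphate. HK2, the inducible mitochondrially bound hexokinase and the most abundant of the family here, stood at 91.1 and 94.6 TPM in the control libraries, 88.2 and 86.0 TPM in those labelled sgMETTL1.3, and 73.4 and 73.6 TPM in the sgMETTL1.6 libraries. The 3 groups did not overlap, and those labelled sgMETTL1.6 were lowest. HK2 fell by 0.21 ± 0.035 over both guides (limma adjusted p = 1.75e-04). Taken alone, sgMETTL1.6 gave -0.33 (limma adjusted p = 1.94e-05) and sgMETTL1.3 -0.09 (adjusted p = 0.0675), and the difference between the guides was itself past the test (-0.24, limma adjusted p = 0.00154).

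HK1, the housekeeping hexokinase, ran from 22.1 to 23.1 TPM in the control libraries, 24.9 to 25.3 TPM in those labelled sgMETTL1.3 and 22.4 to 22.5 TPM in those labelled sgMETTL1.6. It did not pass over both guides (0.07, limma adjusted p = 0.236). For the libraries labelled sgMETTL1.3 alone it passed (0.14, limma adjusted p = 0.0329). That call was lost in 5 of 15 settings, among them median-ratio scaling (limma adjusted p = 0.117) and leaving out ribosomal protein genes (0.125). The others left out sgNS replicate 1 (log2 change 0.11) or either sgMETTL1.3 replicate (0.15 and 0.13). HK3, a hexokinase of granulocytes and monocytes, was the member under the filter, at 0.72 and 0.37, 0.21 and 0.17, and 0.39 and 0.42 TPM in the same order. With no filter HK3 gave -0.25 over both guides (limma adjusted p = 0.0839) and passed for sgMETTL1.3 alone (-0.37, limma adjusted p = 0.0402), and values this low compress on the log2(TPM + 1) scale.

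The upper steps carry glucose 6-phosphate to the triose phosphates, and 4 of 7 members rose, 1 fell and 2 did not pass, so 71.4% passed beside 59.4% of all tested genes. GPI, glucose-6-phosphate isomerase (chromosome 19, 34359480 to 34402413, plus strand), showed the largest rise of all members over both guides on the log2(TPM + 1) scale, on which low genes such as SLC2A6 are compressed, and SLC2A6 ranked above it with a pseudocount of 0.1 TPM. It stood at 103 and 106 TPM in the control libraries, 145 and 151 TPM in those labelled sgMETTL1.3, and 131 and 133 TPM in those labelled sgMETTL1.6. All 4 guide libraries lay above both controls, those labelled sgMETTL1.3 highest. GPI rose by 0.41 ± 0.033 (limma adjusted p = 2.76e-07), and its mean TPM was higher by 41.2% for sgMETTL1.3 and by 25.9% for sgMETTL1.6.

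TPI1, which interconverts the triose phosphates, had 642 and 648 TPM in the control libraries, 782 and 799 TPM in those labelled sgMETTL1.3, and 749 and 789.7 TPM in those labelled sgMETTL1.6. All guide libraries were above both controls, and TPI1 rose by 0.27 ± 0.027 (limma adjusted p = 2.11e-06). The aldolases, which split fructose 1,6-bisphosphate, moved apart. ALDOA, the muscle-type and main aldolase here, had 875 and 905 TPM in the control libraries, 1051 and 1095 TPM in those labelled sgMETTL1.3, and 938 and 1009 TPM in those labelled sgMETTL1.6. ALDOA rose by 0.20 ± 0.031 (limma adjusted p = 1.21e-04), with all guide libraries above both controls. ALDOC, the brain-type aldolase (chromosome 17, 28573115 to 28577264, minus strand), had 30.8 and 34.1 TPM in the control libraries, 21.0 and 22.7 TPM in those labelled sgMETTL1.3, and 23.8 and 22.3 TPM in those labelled sgMETTL1.6. Every guide library was below both controls. ALDOC fell by 0.51 ± 0.055 (limma adjusted p = 4.43e-06), and its share of the aldolase TPM was 3.52% ± 0.163 (SD, n = 2) in the control, 1.99% in those labelled sgMETTL1.3 and 2.32% in those labelled sgMETTL1.6.

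Phosphofructokinase, the committed step, differed by subunit. PFKL, the liver-type subunit and the most abundant here, had 166 and 177 TPM in the control libraries, 187 and 194 TPM in those labelled sgMETTL1.3, and 163 and 173 TPM in those labelled sgMETTL1.6. It did not pass over both guides (0.06, limma adjusted p = 0.179). For sgMETTL1.3 alone its change of 0.15 passed (limma adjusted p = 0.00849), but that call was lost in 6 of 15 settings. Among these were quantile normalization (limma adjusted p = 0.0746), median-ratio scaling (0.0606), leaving out ribosomal protein genes (0.0537) and no variance trend (0.0523). The others left out sgNS replicate 1 (log2 change 0.10) or sgMETTL1.3 replicate 2 (0.13). PFKP, the platelet-type subunit, had 43.7 and 45.3, 54.0 and 52.5, and 44.2 and 48.3 TPM in the same order, so the libraries labelled sgMETTL1.6 overlapped the controls. PFKP rose by 0.15 ± 0.044 over both guides (limma adjusted p = 0.00946), lost without sgNS replicate 1 (0.104). PFKM, the muscle-type subunit, stayed between 19.4 and 20.7 TPM in all libraries (0.03, limma adjusted p = 0.644).

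The PFKFB enzymes make and break fructose 2,6-bisphosphate, the activator of phosphofructokinase. Over both guides none of the 3 rose and 1 fell, where 32.6% of all tested genes were higher and 26.8% lower. PFKFB3, the isozyme with the highest kinase activity, had 20.9 and 21.5 TPM in the control libraries, 21.3 and 21.0 TPM in those labelled sgMETTL1.3, and 17.8 and 16.4 TPM in those labelled sgMETTL1.6. Only the libraries labelled sgMETTL1.6 were below the controls. The call over both guides (-0.15 ± 0.051, limma adjusted p = 0.0222) was lost in 5 settings, among them without either sgNS replicate (0.064 and 0.146). Against sgMETTL1.3, sgMETTL1.6 was lower in PFKFB3 by itself (-0.29, limma adjusted p = 0.00461). PFKFB2 (1.2 to 1.85 TPM) and PFKFB4 (3.03 to 4.04 TPM) did not pass over both guides (limma adjusted p = 0.436 and 0.226).

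The lower steps, which yield ATP and pyruvate, had 4 of 6 members higher, 1 lower and GAPDH not past the test, where 32.6% of all tested genes were higher and 26.8% lower. PGK1, phosphoglycerate kinase, had 682 and 675 TPM in the control libraries, 795 and 796 TPM in those labelled sgMETTL1.3, and 800.3 and 791 TPM in the sgMETTL1.6 libraries. The guide libraries were tightly grouped above the controls, and PGK1 rose by 0.23 ± 0.023 (limma adjusted p = 2.60e-06). PGAM1, phosphoglycerate mutase, had 557 and 576 TPM in the control libraries, 708 and 714 TPM in those labelled sgMETTL1.3, and 687 and 712 TPM in those labelled sgMETTL1.6. PGAM1 rose by 0.32 ± 0.026 (limma adjusted p = 4.26e-07), with all guide libraries above both controls. ENO1, the main enolase, had 1797 and 1849.53 TPM in the control libraries, 2277 and 2272 TPM in those labelled sgMETTL1.3, and 2050.45 and 2117 TPM in those labelled sgMETTL1.6. ENO1 rose by 0.26 ± 0.023 (limma adjusted p = 8.07e-07), again with no overlap with the control.

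ENO2, the neuron-type enolase, moved the other way at a far lower level. It had 7.26 and 8.19 TPM in the control libraries, 5.74 and 5.86 TPM in those labelled sgMETTL1.3, and 5.66 and 5.54 TPM in those labelled sgMETTL1.6, so every guide library was below both controls. ENO2 fell by 0.38 ± 0.069 (limma adjusted p = 3.78e-04). PKM, pyruvate kinase, had 1256 and 1294 TPM in the control libraries, 1528 and 1524 TPM in those labelled sgMETTL1.3, and 1418.19 and 1417.89 TPM in those labelled sgMETTL1.6. PKM rose by 0.21 ± 0.022 (limma adjusted p = 4.88e-06), although for sgMETTL1.6 alone its 0.15 became 0.02 after quantile normalization (adjusted p = 0.486). The table is per gene, so the PKM1 and PKM2 splice forms were not separated.

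GAPDH, glyceraldehyde-3-phosphate dehydrogenase, had 3489.98 and 3618 TPM in the control libraries, 3603 and 3713 TPM in those labelled sgMETTL1.3, and 3289.8 and 3518 TPM in the sgMETTL1.6 libraries. The groups overlapped, and its change of -0.01 did not pass (limma adjusted p = 0.762). GENCODE 29 names 62 GAPDH pseudogenes, 13 of PGAM1, 6 each of LDHA and RPE, and 5 of PKM, whose shared reads RSEM divides by a model. In all, 15 members have at least 1 such pseudogene, and the small changes of these genes carry that uncertainty.

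Lactate dehydrogenase interconverts pyruvate and lactate, and its subunits differed. LDHA, the M subunit, had 702 and 691 TPM in the control libraries, 836 and 837 TPM in those labelled sgMETTL1.3, and 807 and 780.02 TPM in those labelled sgMETTL1.6. All guide libraries were above both controls, and LDHA rose by 0.23 ± 0.025 (limma adjusted p = 5.05e-06). LDHB, the H subunit and the more abundant, had 1698 and 1684 TPM in the control libraries, 1643 and 1584 TPM in those labelled sgMETTL1.3, and 1661 and 1599 TPM in those labelled sgMETTL1.6. LDHB passed at -0.06 ± 0.025 (limma adjusted p = 0.049), a call lost in 7 of 15 settings, among them without either sgNS replicate (0.207 and 0.121), without sgMETTL1.3 replicate 2 (0.158) and without sgMETTL1.6 replicate 2 (0.13). The share of LDHA in the summed TPM of LDHA and LDHB was 29.2% ± 0.115 (SD, n = 2) in the control libraries, 34.1% in those labelled sgMETTL1.3 and 32.7% in those labelled sgMETTL1.6.

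The monocarboxylate transporters carry lactate and pyruvate with a proton. SLC16A3, the lactate exporter MCT4 of glycolytic cells, had 140.2 and 146 TPM in the control libraries, 182 and 195 TPM in those labelled sgMETTL1.3, and 156 and 172 TPM in those labelled sgMETTL1.6. All guide libraries were above both controls, and SLC16A3 rose by 0.29 ± 0.043 (limma adjusted p = 6.82e-05). For sgMETTL1.6 alone its 0.19 (limma adjusted p = 0.00605) was lost without sgNS replicate 1 (0.0597), without sgMETTL1.6 replicate 2 (0.0616) and with no filter (0.0597). SLC16A1, the widely expressed carrier MCT1, had 67.0 and 65.5 TPM in the control libraries, 74.6 and 71.1 TPM in those labelled sgMETTL1.3, and 76.2 and 69.2 TPM in those labelled sgMETTL1.6. SLC16A1 rose by 0.13 ± 0.044 (limma adjusted p = 0.0183), a call lost in 7 settings, among them without either sgNS replicate (0.0595 and 0.126) and without sgMETTL1.3 replicate 1 (0.0566).

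PGM1, phosphoglucomutase, joins glycogen to glucose 6-phosphate. It had 26.6 and 28.2 TPM in the control libraries, 33.2 and 35.6 TPM in those labelled sgMETTL1.3, and 29.9 and 28.9 TPM in those labelled sgMETTL1.6. PGM1 rose by 0.21 ± 0.048 over both guides (limma adjusted p = 0.00211), with 0.32 for sgMETTL1.3 (limma adjusted p = 2.73e-04) and 0.10 for sgMETTL1.6 (adjusted p = 0.154).

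**Figure D3:**
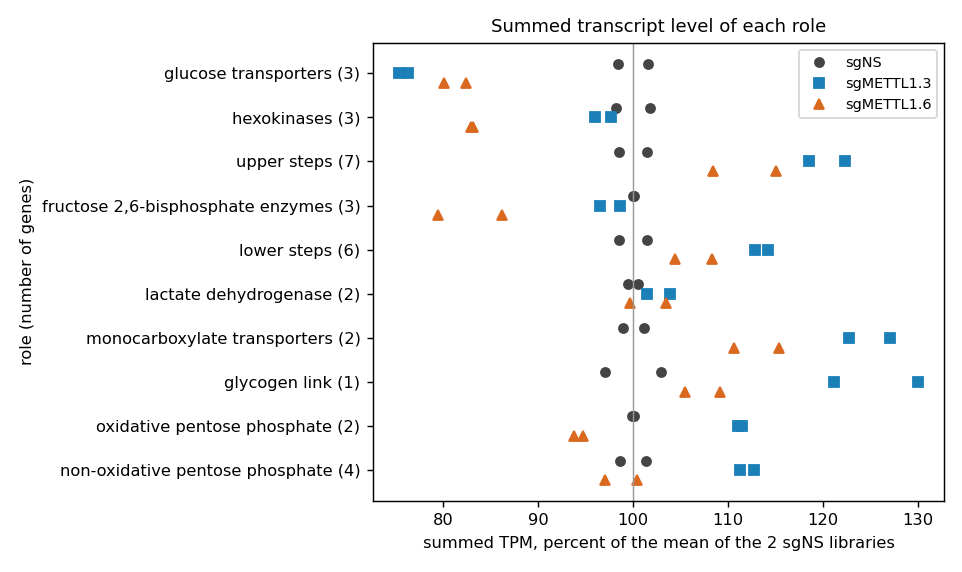
Summed TPM of each role (vertical) as a percent of the control mean (horizontal), with 1 point per library coloured by guide. The summed glucose transporters lie below the control under both guides (-24.2% and -18.8% on average). Among them only SLC2A3 fell, while SLC2A1 did not pass and SLC2A6 had a higher mean. Monocarboxylate transporters lie above the control (24.9% and 13.0%). For sgMETTL1.6 the oxidative pentose phosphate arm lies below the control (-5.8%) and the non-oxidative arm overlaps it.

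In the oxidative pentose phosphate arm, PGD, 6-phosphogluconate dehydrogenase (chromosome 1, 10398592 to 10420144, plus strand), had the lowest adjusted p of all members for the difference between the guides. It had 209 and 211 TPM in the control libraries, 249 and 246 TPM in those labelled sgMETTL1.3, and 199 and 197 TPM in the sgMETTL1.6 libraries. The libraries labelled sgMETTL1.3 were above, and those labelled sgMETTL1.6 below, both controls. PGD rose by 0.24 ± 0.032 for sgMETTL1.3 (limma adjusted p = 3.53e-05), gave -0.08 ± 0.032 for sgMETTL1.6 (adjusted p = 0.0526), and differed between the guides by -0.32 ± 0.032 (limma adjusted p = 3.3e-05). The value for sgMETTL1.6 passed in 5 of 15 settings, among them quantile normalization (0.0256), median-ratio scaling (0.0381) and leaving out ribosomal protein genes (0.0243). Its call over both guides (0.08 ± 0.028, limma adjusted p = 0.0265) averaged opposite signs and was lost in 7 settings, all 3 other scalings among them (0.0601, 0.0925 and 0.144) and also without either sgNS replicate (0.153 and 0.0939) and without sgMETTL1.3 replicate 1 (0.0708). PGLS, 6-phosphogluconolactonase, had 72.4 and 71.2, 63.6 and 67.3, and 67.4 and 66.5 TPM in the same order, with all guide libraries below the controls. PGLS fell by 0.12 ± 0.038 (limma adjusted p = 0.0174), lost without either sgNS replicate (0.128 and 0.0609) and without sgMETTL1.3 replicate 1 (0.0629).

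In the non-oxidative arm, RPE and RPIA, which act on the same ribulose 5-phosphate, moved in opposite directions under both guides. RPE, ribulose-phosphate 3-epimerase (chromosome 2, 210002565 to 210022259, plus strand), had 87.0 and 80.9 TPM in the control libraries, 58.1 and 55.1 TPM in those labelled sgMETTL1.3, and 68.3 and 65.0 TPM in those labelled sgMETTL1.6. Every guide library was below both controls, those labelled sgMETTL1.3 lowest. RPE fell by 0.44 ± 0.043 (limma adjusted p = 1.57e-06), next among the falls after SLC2A3 and ALDOC. RPIA, ribose-5-phosphate isomerase, had 54.4 and 56.9 TPM in the control libraries, 69.0 and 67.5 TPM in those labelled sgMETTL1.3, and 65.97 and 62.9 TPM in those labelled sgMETTL1.6. RPIA rose by 0.25 ± 0.039 (limma adjusted p = 1.15e-04), with no overlap with the control.

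TALDO1, transaldolase, had 574 and 591 TPM in the control libraries, 689.5 and 692 TPM in those labelled sgMETTL1.3, and 595 and 611 TPM in those labelled sgMETTL1.6. TALDO1 rose by 0.15 ± 0.026 over both guides (limma adjusted p = 2.50e-04), with 0.25 for sgMETTL1.3 and 0.05 for sgMETTL1.6 (adjusted p = 0.177). TKT, transketolase, had 333 and 349.66, 366 and 383, and 302 and 329 TPM in the same order. TKT was above the controls with the sgMETTL1.3 label (0.13, limma adjusted p = 0.0161) and below them in those labelled sgMETTL1.6 (-0.12, limma adjusted p = 0.0367). The first of these calls was lost without sgNS replicate 1 (0.144) or sgMETTL1.3 replicate 2 (0.132) and under 4 other settings, and the second without sgNS replicate 2 (0.239) or sgMETTL1.6 replicate 1 (0.313) and under 3 others, whereas the difference between the guides passed (-0.25, limma adjusted p = 0.00175).

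Set side by side, transporters, glycolytic enzymes and the pentose phosphate branch each held members of both directions. Over both guides, 3 of 5 transporters rose and 1 fell (median log2 change 0.13). Of 17 tested glycolytic and lactate dehydrogenase genes 9 rose and 4 fell (0.15). Of 6 pentose phosphate genes 3 rose and 2 fell (0.04). Among all tested genes 32.6% rose and 26.8% fell (0.02). Calls lost in at least 1 setting were SLC2A6 and SLC16A1 (transporters), PFKP and LDHB (glycolytic enzymes), PGLS and PGD (the branch), and PFKFB3. The falls were SLC2A3 among the transporters, HK2, ALDOC, ENO2 and LDHB among the glycolytic enzymes, and PGLS and RPE in the branch, beside PFKFB3. The 2 guides share the same control libraries, so their values are given beside each other only. For sgMETTL1.3 18 members passed higher and 5 lower, where 34.3% and 24.2% of all tested genes did and 58.5% passed in either direction, with a median of 0.15 beside 0.04. After median-ratio scaling or without ribosomal protein genes the same contrast had 14 members higher and 8 lower, and all tested genes then split into 3080 higher and 3182 lower, or 3087 and 3123. For sgMETTL1.6 12 passed higher and 7 lower, where 25.7% and 25.3% of all tested genes did and 51% passed in either direction, with a median of 0.01 beside 0.00. In the pentose phosphate branch sgMETTL1.3 had 4 higher and 2 lower (median 0.19), and sgMETTL1.6 had RPIA higher and TKT and RPE lower (median -0.09). The branch's summed TPM was 1345 ± 21.3 in the control libraries, 1504 ± 12 in those labelled sgMETTL1.3 and 1315 ± 23.5 in those labelled sgMETTL1.6 (SD, n = 2).

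**Figure D4:**
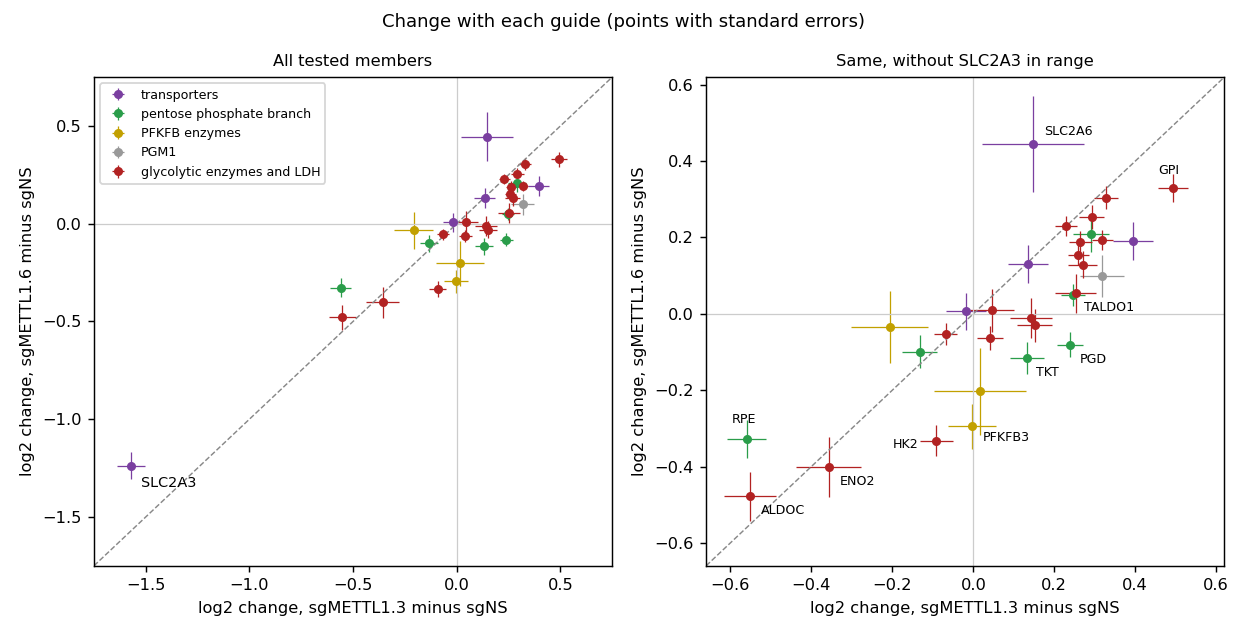
Log2 change of each tested member for sgMETTL1.6 (vertical) against that for sgMETTL1.3 (horizontal), with both guides measured against the same control libraries and the diagonal marking equal change. Bars are standard errors, colours are classes of members, and the right panel enlarges the range without SLC2A3. PGD and TKT lie right of zero and below it, HK2 and PFKFB3 lie lower for sgMETTL1.6 than for sgMETTL1.3, and SLC2A3 and ALDOC lie far below zero for both.

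Compared with each other, sgMETTL1.6 was below sgMETTL1.3 in 14 members and above it in 2, SLC2A3 (0.34, limma adjusted p = 0.00461) and RPE (0.23, limma adjusted p = 0.00606), both of which stood below the control under both guides. Of all tested genes 15.8% were lower and 7.23% higher in this contrast, 1721 and 789 genes, but 809 lower and 1102 higher after median-ratio scaling, so its background direction rests on the scaling. The 14 became 7 after median-ratio scaling, 6 with no filter, 6 without the variance trend, 7 without sgMETTL1.3 replicate 2 and 9 without sgMETTL1.6 replicate 1. The libraries labelled sgMETTL1.6 lay wholly below those labelled sgMETTL1.3 in 19 members and wholly above in 4, beside 43% and 19.5% of all tested genes. Across all genes 23% passed in either direction. In every setting run, 6 of the 16 calls held: SLC2A3, HK2, PFKFB3, PGD, TALDO1 and TKT. The others that passed were GPI, PFKL, PFKP, ALDOA, GAPDH, ENO1, PKM, SLC16A3 and PGM1 on the lower side and RPE on the higher. Over both guides against sgNS, 17 of 24 calls held in every setting, and for sgMETTL1.3 and sgMETTL1.6 alone 18 of 23 and 13 of 19 did.

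Other genes of sugar and pyruvate metabolism gave the setting of these members. Of 76 listed, 74 were in the table and 52 were tested, of which 15 rose, 18 fell and 19 did not pass over both guides (median 0.01). That is 28.8% higher and 34.6% lower, beside 32.6% and 26.8% of all tested genes, so the share that passed, 63.5%, was near the 59.4% of all genes. The 15 became 9 without sgNS replicate 2. By group, 4 rose and 3 fell of 11 isozymes and side-step enzymes, 2 rose and 4 fell of 9 other carriers, 1 rose and 4 fell of 9 genes of pentose and ribose use, 7 rose and 2 fell of 12 genes of pyruvate entry into mitochondria, and 1 rose and 5 fell of 11 regulators.

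TXNIP, a glucose-responsive arrestin that lowers glucose uptake, had 349 and 351 TPM in the control libraries, 173 and 174 TPM in those labelled sgMETTL1.3, and 165 and 160.42 TPM in those labelled sgMETTL1.6. TXNIP fell by 1.06 ± 0.029 (limma adjusted p = 5.08e-12), and every guide library was far below both controls. Its relative ARRDC4 fell by 1.00 (limma adjusted p = 4.1e-07), from 6.98 and 7.19 TPM to between 2.47 and 3.91 TPM. EPAS1, the hypoxia factor HIF-2α, was the 1 regulator that rose, from 2.32 and 2.36 TPM to 14.4 and 12.9 TPM in those labelled sgMETTL1.3 and 6.38 and 7.08 TPM in those labelled sgMETTL1.6. EPAS1 rose by 1.67 ± 0.072 (limma adjusted p = 6.5e-10).

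The remaining deepest falls were in the muscle-type isozymes ENO3 (-0.46) and PGAM2 (-0.43), ribokinase RBKS (-0.43), the dihydrolipoamide dehydrogenase DLD of the pyruvate dehydrogenase complex (-0.40), the gluconeogenic phosphatase FBP1 (-0.35) and the monocarboxylate carrier SLC16A7 (-0.34). The remaining highest rises were in the fructose transporter SLC2A5 (0.52), the mitochondrial phosphatase PGAM5 (0.50), the intracellular transporter SLC2A8 (0.47), the phosphopentomutase PGM2 (0.31), sedoheptulokinase SHPK (0.30), the fructose bisphosphatase TIGAR (0.29) and pyruvate carboxylase PC (0.27). PGAM5 shares its name with the glycolytic mutases but is known as a protein phosphatase. All 13 passed limma over both guides, although TIGAR did not without sgNS replicate 2 (adjusted p = 0.0885).

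**Figure D5:**
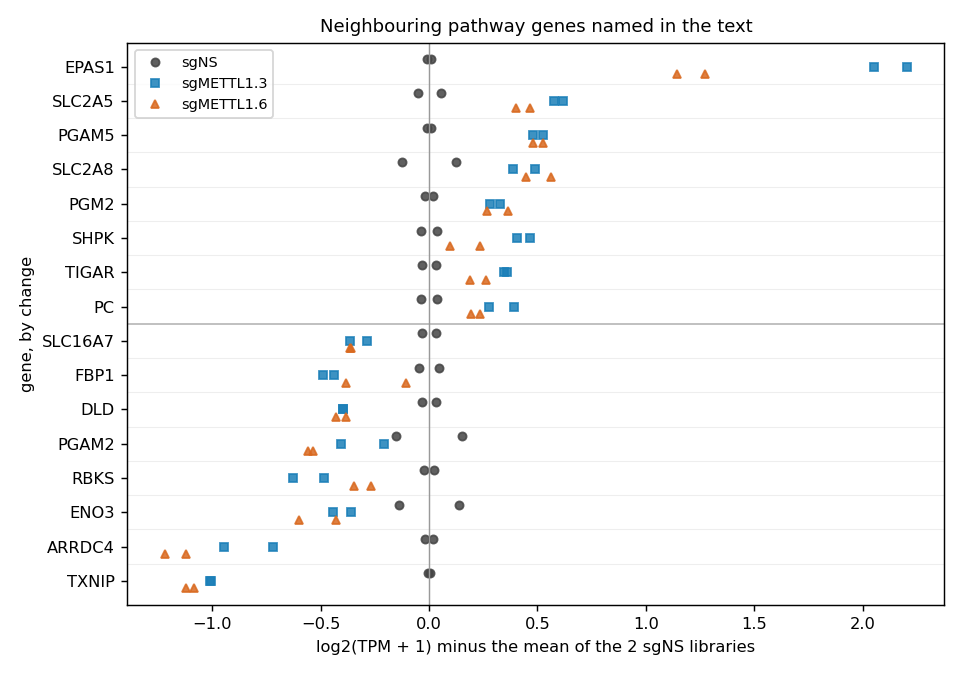
Level of the 8 highest and 8 lowest other pathway genes that passed (vertical) as log2(TPM + 1) minus the control mean (horizontal), with 1 point per library coloured by guide. EPAS1, with a mean change of 1.67, lies above the rest, TXNIP and ARRDC4, at -1.06 and -1.0, lie lowest.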

How the data were processed

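The authors deposited 1 table of TPM from poly(A)-selected RNA sequencing of 6 libraries. RSEM 1.2.31 and GRCh38 were used, per the submitters' processing notes, while the aligner is not given in the sources used here, nor is the gene annotation. RSEM divides reads between similar transcripts, and TPM scales each library to 1 total, so abundant genes shift the rest and the depth stays unknown. Names tied the 6 value columns to samples, and 0 columns were left over.

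The limma package (3.58.1, R 4.3.3) was run on log2(TPM + 1), a scale that understates the change of low genes, for genes that averaged 1 TPM or more. A single fit held the 3 groups, with variances moderated by empirical Bayes along a mean trend, and Benjamini-Hochberg adjusted p-values under 0.05 over all 10911 tested genes were called. The 4 contrasts were the mean of both guides, each guide against sgNS, and the guides against each other. The steps were tested on simulated data. In 15 settings 1 choice was changed at a time: pseudocounts of 0.1 and 5 TPM, no filter or a mean of 5 TPM, quantile normalization, median-ratio scaling, leaving out 75 ribosomal protein genes, no variance trend, the replicate number as a term, and each library left out in turn.

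The members and lists were chosen with earlier results of these data known. Every member is named, with METTL1 as the targeted gene and the 8 highest and 8 lowest other pathway genes that passed. PDK1 and MLXIPL were not analysed here. Positions are from GENCODE 29 on GRCh38 and promoters from RefSeq on GRCh38.p14. Promoter stretches were printed only outside GENCODE 29 exons or as windows of 30 bases. Groups of 2 allow no outlier test.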

Additional observations from a re-analysis of the deposited data

Results flagged for a closer look

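In 16 members the effect against sgNS differed between the guides in limma's contrast of sgMETTL1.6 with sgMETTL1.3, where 23% of all tested genes passed. Of these, 6 held in every setting run, SLC2A3, HK2, PFKFB3, PGD, TALDO1 and TKT, and 10 were lost in at least 1. On the log2(TPM + 1) scale this difference was 0.34 for SLC2A3 and 0.23 for RPE, both below the control under each guide and less so for sgMETTL1.6. For genes with a mean above the control under both guides it was -0.16 for GPI, -0.14 for ALDOA, -0.13 for ENO1, -0.11 for PKM, -0.20 for SLC16A3, -0.22 for PGM1, -0.20 for PFKP and -0.20 for TALDO1, a smaller mean change for sgMETTL1.6 in each. For sgMETTL1.6 itself PFKP (limma adjusted p = 0.408), PGM1 (0.154) and TALDO1 (0.177) did not pass against sgNS, and the PFKP libraries overlapped the controls. It was -0.24 for HK2 and -0.29 for PFKFB3, lower for sgMETTL1.6. The guides had mean changes of opposite sign in PGD (-0.32), TKT (-0.25), PFKL (-0.18) and GAPDH (-0.10). The small GAPDH value for sgMETTL1.3 turned negative after median-ratio scaling, and the small PFKL value for sgMETTL1.6 (-0.03) turned positive without sgNS replicate 2 (0.018). METTL1 mRNA also differed between these libraries, and its part in these differences was not tested.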

How the results depend on the processing

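Depth is unknown, so no limit of detection can be given, and 2 libraries a group leave small changes to the shared estimate of the spread. Over both guides, the count of members that fell (8) was 5 to 8 with 1 library left out, and that of other pathway genes that rose (15) was 9 to 14. For sgMETTL1.3 the 5 members that fell became 8 without ribosomal protein genes and 8 after median-ratio scaling. For sgMETTL1.6 against sgMETTL1.3, the 2 members higher became 1 with no filter, and the 14 lower became 6 with no filter, 7 after median-ratio scaling, 6 without the variance trend and 7 to 14 with 1 library left out. The cause was not tested. Beside these and 1 count under the replicate block, given next, the counts of members stayed within 1.5 times.

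The replicate numbers were not taken as pairs: deviations of same-numbered libraries correlated at -0.005, 0.207 and 0.145. With the replicate block, the 7 members lower for sgMETTL1.6 became 11.

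Of 128 results, a member in a contrast, 24 changed sign at least once, 52 times in all. None of these had passed the test as reported, and 1 passed under the alternative, LDHB for sgMETTL1.6 against sgMETTL1.3 after quantile normalization (adjusted p = 0.0154). After quantile normalization these were GAPDH 0.0575 for both guides, LDHB 0.0021 for sgMETTL1.3, HK1 0.0228 and PFKFB4 0.0529 for sgMETTL1.6 and PFKM 0.0236, PGK1 -0.0432, LDHB -0.1373 and SLC16A1 0.0369 for sgMETTL1.6 against sgMETTL1.3. After median-ratio scaling these were TKT -0.0163 for both guides, PFKFB2 -0.014 and GAPDH -0.0064 for sgMETTL1.3 and PFKM 0.0067, TPI1 0.0068, PGAM1 0.022 and SLC16A1 0.0404 for sgMETTL1.6 against sgMETTL1.3. Without ribosomal protein genes these were PFKM -0.0018 and TKT -0.022 for both guides, PFKFB2 -0.0149 and GAPDH -0.0059 for sgMETTL1.3, SLC2A1 -0.0073 and PFKM -0.0044 for sgMETTL1.6 and PGAM1 0.0095 and SLC16A1 0.0282 for sgMETTL1.6 against sgMETTL1.3. With 1 library left out, the lowest and highest values for both guides were SLC2A1 -0.0295 to 0.0187, GAPDH -0.0367 to 0.0154 and TKT -0.0255 to 0.0428. With 1 library left out, the lowest and highest values for sgMETTL1.3 were SLC2A1 -0.0413 to 0.0068, SLC2A6 -0.0314 to 0.3259, PFKFB2 -0.0756 to 0.1077 and PFKFB3 -0.0233 to 0.0177. With 1 library left out, the lowest and highest values for sgMETTL1.6 were SLC2A1 -0.0197 to 0.0326, HK1 -0.0428 to 0.0189, PFKL -0.0777 to 0.018, PFKM -0.0024 to 0.0206, PFKP -0.0088 to 0.1155 and PFKFB4 -0.1304 to 0.0622. With 1 library left out, the lowest and highest values for sgMETTL1.6 against sgMETTL1.3 were SLC2A1 -0.0024 to 0.0499, PGK1 -0.0078 to 0.0093, PGAM1 -0.0496 to 0.0023, LDHB -0.0122 to 0.0422, SLC16A1 -0.0731 to 0.0637 and PGLS -0.0064 to 0.0722.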

Other observations

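Some isozymes and carriers known for other tissues were at or near 0, although others, such as ENO3 and PGAM2, were tested. Of 22 listed pathway genes under the filter, HKDC1, a hexokinase, and PGK2, the phosphoglycerate kinase of sperm, were at 0 TPM in every library. In all, 18 stayed under 0.5 TPM in every library, among them PKLR, the pyruvate kinase of liver and red cells, GAPDHS, a sperm enzyme, FBP2, the muscle fructose bisphosphatase, SLC2A2 and SLC2A4, the transporters of liver and of insulin-responsive muscle and fat, and TKTL1 and TKTL2. The others reached 0.78 TPM (LDHD), 0.84 TPM (LDHC, the testis lactate dehydrogenase), 0.85 TPM (SLC2A14) and 1.27 TPM (SLC16A4), each as its highest library.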
